A study of Caenorhabditis elegans with 12 samples.

Results

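The 10 genes described here encode cohesin subunits and recombination proteins of meiosis in the nematode Caenorhabditis elegans. They were chosen by name: the cohesin genes rec-8, coh-3, coh-4, him-1 and smc-3, and the recombination genes spo-11, rad-51, msh-5, him-14 and cosa-1. All 10 were among the 46904 gene IDs of the deposited counts, and all 10 passed the filter on low counts that left 16526 genes for testing. Polyadenylated RNA was sequenced from cultures of 2 genotypes, labelled glh1 and wt, with 3 cultures of each. The series title sets worms with glh-1 against worms without it, where GLH-1 is a germ line helicase related to Vasa that is found in the P granules. No source used here gives the allele behind the label glh1, and no treatment other than the fractionation is labelled. Each lysate gave a polysomal library, from the polysome fraction of a 10 to 50% sucrose gradient, and a total RNA library, so that the groups were glh1 polysomal, wt polysomal, glh1 total and wt total, with 3 libraries each. The worms were hatched as synchronised larvae and grown in liquid culture at 20 °C for about 40 h, to the young adult stage for most of them, and the libraries are of whole worms from mass cultures, although the tissue label reads whole embryo.

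Cohesin is a ring of a pair of SMC proteins closed by a kleisin, and it holds sister chromatids together. In the germ line the mitotic kleisin is largely replaced by meiotic ones, on which the chromosome axis is built. Along that axis SPO-11 cuts DNA, RAD-51 coats the resected ends and finds the homologous chromosome, and MSH-4 and MSH-5 with COSA-1 mark the few sites that become crossovers. In C. elegans these proteins are known from the pachytene region of the adult gonad, where crossovers link each pair of homologues before the meiotic divisions.

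Library totals were 34520267 to 49672537 estimated counts, of which annotated ribosomal RNA took 3.07 to 45.7%. Some libraries stood apart: on the second principal component both libraries of wt culture 1 (-28.7 and -22.6) lay inside the range of the glh1 libraries (-31.5 to -18.4) and not with wt cultures 2 and 3 (37.8 to 64.2), and polysomal glh1 library 3 lay at 136 on the first component, where the other polysomal libraries lay between 36.5 and 55.7. The gene named by the genotype label was not low in the libraries labelled glh1: glh-1 had 880 to 1495 CPM in glh1 polysomal and 293 to 388 CPM in wt polysomal libraries, and 532 to 586 CPM in glh1 total and 305 to 424 CPM in wt total libraries. CPM are counts brought to the same library size after TMM scaling. Since the allele is not known, these levels do not check the labels. Adult markers were high, with 5658 to 13483 CPM of the yolk protein gene vit-2 as group means. All 15 zygotic embryo markers together came to 21.6 to 49.4 CPM in a library and 9 of the 15 passed the filter, while med-1 and hlh-27 were at 0 in all 3 glh1 polysomal libraries. The 16 germ line markers were all detected and summed to 1173 to 2372 CPM.

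Levels can be compared between genes per kilobase (kb) of exon. In total RNA rec-8 was the highest of the 10, with 33.8 ± 1.6 CPM per kb in glh1 and 35.4 ± 6.3 in wt (SD, n = 3 each), above 84.0% of the genes tested in glh1 and 83.3% in wt. rad-51 followed with 25.95 ± 1.3 CPM per kb in glh1 total RNA and 27.1 ± 6.7 in wt total RNA. In glh1 total RNA the order then ran coh-3 (20.2 CPM per kb), him-1 (19.2), smc-3 (14.2), spo-11 (12.1), coh-4 (10.2), cosa-1 (8.69), him-14 (6.43) and msh-5 (5.91). In that group coh-3 overlapped him-1, while the other neighbours in this order did not overlap over 3 libraries, except him-14 and msh-5. In wt total RNA the libraries were more spread and each neighbour overlapped the next, except coh-4 (12.3 CPM per kb) and him-14 (8.75). In polysomal RNA rad-51 came first instead, with 32.5 ± 4.5 CPM per kb in glh1 and 30.5 ± 3.6 in wt, ahead of rec-8 with 12.5 ± 1.0 in glh1 and 10.5 ± 0.5 in wt. By CPM per kb rad-51 stood above 81.7% of the genes tested in glh1 polysomal, 80.95% in wt polysomal, 79.5% in glh1 total and 78.2% in wt total RNA. The share of genes below him-1 was 47.2% in glh1 polysomal and 47.4% in wt polysomal, against 73.3% in glh1 total and 73.8% in wt total.

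**Figure D1:**
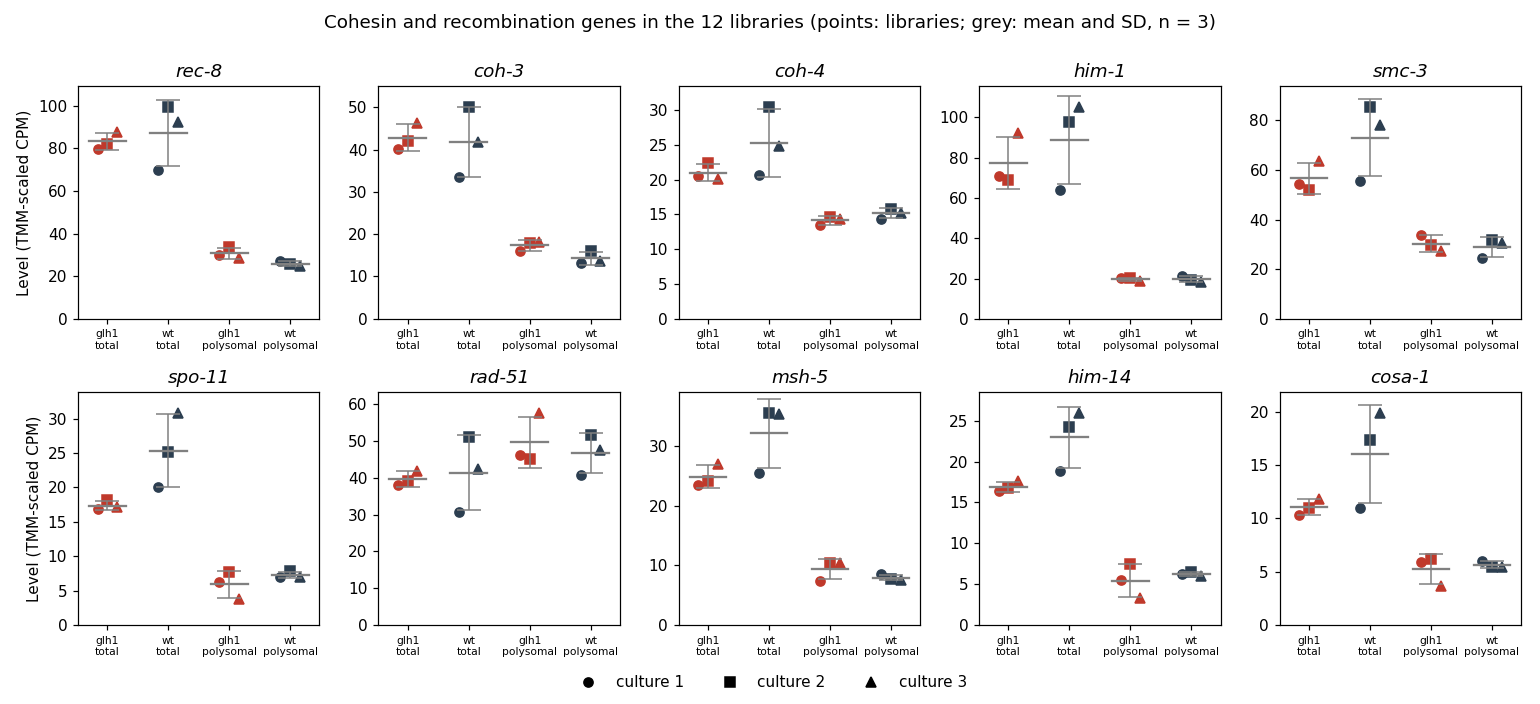
TMM-scaled CPM of the 10 genes in each of the 12 libraries, with a panel for each gene and an axis from 0; points are libraries, shaped by culture, and grey marks are the mean and SD of 3 libraries. In 9 panels the polysomal libraries lie below the total ones, by group mean, and in the rad-51 panel they do not.

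Polysomal and total RNA of the same cultures were compared first. In both genotypes 9 of the 10 genes fell in polysomal RNA and rad-51, the strand exchange recombinase, did not pass the test. The largest fall of the 10 in this fit was that of him-1, which stood at 0.253 times its total RNA level in glh1 and 0.221 times in wt. Of all genes tested, 19.1% fell and 23.6% rose in glh1, and 19.8% fell and 20.1% rose in wt, with edgeR's quasi-likelihood test and a Benjamini-Hochberg adjusted p under 0.05. The median log2 fold change of the 10 genes was -1.36 in glh1 and -1.65 in wt, against 0.13 in glh1 and 0.06 in wt over all genes tested. All 10 genes had groups that did not overlap in glh1, where 63.6% of all genes did not, and 9 had such groups in wt, where 49.2% of all genes did not. Without both libraries of wt culture 1, or without polysomal glh1 library 3, the same count of 9 genes was called lower in each genotype. Over all genes 3998 were called lower in glh1 and 2869 in wt without wt culture 1. Without that glh1 library 2972 were called lower in glh1 and 4063 in wt. CPM are shares of a library, so a lower value means a smaller share of the polysomal RNA and not a measured number of ribosomes per transcript. Both libraries of a culture came from the same lysate and so from the same worms.

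The meiotic kleisins fell to different degrees. rec-8, the kleisin that is the main carrier of sister cohesion in meiosis, had 30.2, 33.5 and 28.6 CPM in polysomal RNA of glh1 cultures 1, 2 and 3, against 79.9, 82.2 and 87.7 CPM in their total RNA. It had 27.1, 25.7 and 24.7 CPM in wt polysomal RNA, against 69.9, 99.4 and 92.5 CPM in wt total RNA. Every polysomal library was thus below every total library, and the log2 fold change was -1.44 ± 0.17 (SE, adjusted p = 1.05e-04) in glh1 and -1.75 ± 0.17 (adjusted p = 3.73e-05) in wt. coh-3, a kleisin that acts with coh-4 beside REC-8, had 15.9, 17.9 and 18.2 CPM in glh1 polysomal and 40.2, 42.2 and 46.3 CPM in glh1 total RNA. In wt it had 13.2, 16.04 and 13.6 CPM in polysomal and 33.5, 50.1 and 41.9 CPM in total RNA. The groups were again apart, with log2 fold changes of -1.31 ± 0.18 in glh1 (adjusted p = 2.55e-04) and -1.55 ± 0.18 in wt (adjusted p = 7.70e-05).

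coh-4, the close paralogue of coh-3, had the smallest fall of the 9 genes. Its values were 13.5, 14.7 and 14.3 CPM in glh1 polysomal RNA, against 20.5, 22.4 and 20.2 CPM in glh1 total RNA. In wt they were 14.4, 15.8 and 15.3 CPM in polysomal RNA, against 20.7, 30.4 and 24.8 CPM in total RNA. No polysomal library reached the lowest total library, and the log2 fold change was -0.57 ± 0.18 in glh1 (adjusted p = 0.0196) and -0.74 ± 0.18 in wt (adjusted p = 0.00570). This call was lost in glh1 without total glh1 library 2 (-0.52, adjusted p = 0.0766). Reads of coh-3 and coh-4 were in part assigned by estimation, since their counts were not whole numbers in 4 of the 12 libraries. coh-4 also shares 327 bp of exon on the same strand with Y45G5AM.7, whose level was 4.88 CPM in glh1 polysomal and 6.68 CPM in wt polysomal RNA, against 40.7 CPM in glh1 total and 46.5 CPM in wt total RNA, so some of their reads could be exchanged.

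The SMC subunits, which form the arms of the ring in all cohesin complexes and not in the meiotic ones alone, fell unequally. him-1, the gene of SMC-1, had 20.1, 20.0 and 18.5 CPM in glh1 polysomal and 70.9, 69.0 and 92.3 CPM in glh1 total RNA. In wt polysomal RNA it had 21.3, 19.3 and 18.3 CPM, against 63.9, 97.7 and 105 CPM in wt total RNA. This was the lowest mean log2 fold change among the 10 genes in both genotypes, -1.98 ± 0.20 in glh1 (adjusted p = 7.54e-05) and -2.18 ± 0.21 in wt (adjusted p = 3.64e-05). smc-3, whose protein pairs with SMC-1, had 33.9, 29.6 and 27.5 CPM in glh1 polysomal and 54.3, 52.1 and 63.7 CPM in glh1 total RNA. In wt it had 24.4, 31.9 and 30.6 CPM in polysomal and 55.5, 85.4 and 78.4 CPM in total RNA, and its log2 fold change was -0.90 ± 0.19 in glh1 (adjusted p = 0.00301) and -1.34 ± 0.19 in wt (adjusted p = 2.92e-04).

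The genes of the ring fell by different amounts, and 3 of the 4 ratios computed between them had fractions that did not overlap in either genotype. The ratio of smc-3 to him-1, per kb of exon, was 1.49 to 1.70 in glh1 polysomal and 0.695 to 0.771 in glh1 total libraries. It was 1.15 to 1.69 in wt polysomal and 0.751 to 0.881 in wt total libraries, so that smc-3 was above him-1 in each of the 6 polysomal libraries and below it in each of the 6 total ones. The ratio of coh-3 to coh-4 was 1.14 to 1.23 in glh1 polysomal and 0.862 to 0.980 in wt polysomal libraries, and 1.82 to 2.22 in glh1 total and 1.57 to 1.63 in wt total libraries. It was thus lower in polysomal RNA, and in both fractions each glh1 library lay above each wt library. This ratio was picked out after its values were seen and has no test. The division of shared reads bears on it, and counts of both genes were not whole numbers in 4 of the 12 libraries. Among the libraries with whole counts, each glh1 library also lay above each wt library of its fraction. The ratio of rec-8 to the sum of coh-3 and coh-4 was 0.747 to 0.872 in glh1 polysomal and 0.683 to 0.831 in wt polysomal libraries, against 1.08 to 1.12 in glh1 total and 1.05 to 1.18 in wt total libraries. The ratio of the 3 meiotic kleisins together to smc-3 was 3.10 to 3.95 in glh1 polysomal and 3.13 to 3.97 in wt polysomal libraries, against 4.23 to 4.93 in glh1 total and 3.54 to 3.91 in wt total libraries, so that the fractions overlapped in wt.

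**Figure D2:**
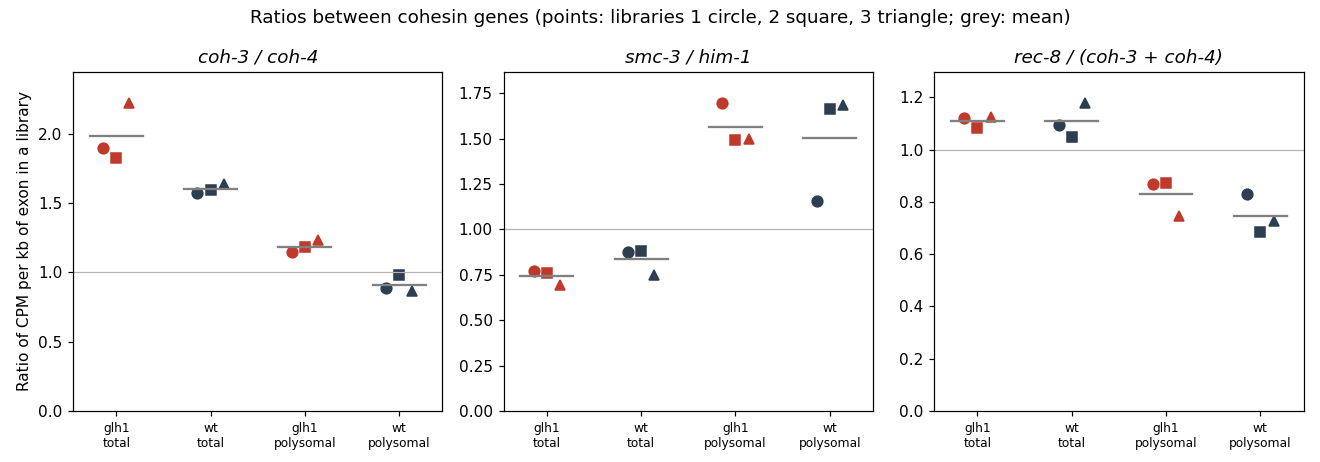
Ratios of CPM per kb between cohesin genes in each library, with a panel for each ratio, an axis from 0 and a line at 1; points are libraries and grey lines the mean of 3. The ratio of smc-3 to him-1 lies above 1 in all 6 polysomal libraries and below 1 in all 6 total libraries, and the ratios of coh-3 to coh-4 and of rec-8 to coh-3 plus coh-4 lie lower in polysomal than in total RNA.

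Among the recombination genes, the cutting enzyme and the crossover factors fell. spo-11, which makes the DNA breaks that start recombination, had 6.30, 7.66 and 3.72 CPM in glh1 polysomal and 16.8, 18.1 and 17.1 CPM in glh1 total RNA. In wt it had 6.99, 7.77 and 6.94 CPM in polysomal and 20.1, 25.2 and 30.8 CPM in total RNA. Its log2 fold change was -1.55 ± 0.25 in glh1 (adjusted p = 6.59e-04) and -1.81 ± 0.25 in wt (adjusted p = 2.24e-04). msh-5, which encodes a MutS-family protein that stabilises crossover intermediates, had 7.46, 10.4 and 10.4 CPM in glh1 polysomal and 23.5, 24.2 and 27.04 CPM in glh1 total RNA. In wt it had 8.49, 7.79 and 7.57 CPM in polysomal and 25.6, 35.6 and 35.5 CPM in total RNA, and the log2 fold change was -1.41 ± 0.20 in glh1 (adjusted p = 2.88e-04) and -2.02 ± 0.20 in wt (adjusted p = 3.85e-05).

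him-14 encodes MSH-4, the partner of MSH-5. It had 5.56, 7.42 and 3.32 CPM in glh1 polysomal and 16.4, 16.7 and 17.6 CPM in glh1 total RNA. In wt it had 6.24, 6.42 and 6.01 CPM in polysomal and 18.8, 24.3 and 25.9 CPM in total RNA, with log2 fold changes of -1.63 ± 0.26 in glh1 (adjusted p = 5.41e-04) and -1.88 ± 0.26 in wt (adjusted p = 1.92e-04). cosa-1, which encodes a cyclin-like protein that marks crossover sites, was the gene with the lowest counts in total RNA. Its values were 5.90, 6.22 and 3.61 CPM in glh1 polysomal and 10.3, 10.96 and 11.8 CPM in glh1 total RNA, and 6.03, 5.46 and 5.45 CPM in wt polysomal and 10.9, 17.3 and 19.8 CPM in wt total RNA. Its log2 fold change was -1.07 ± 0.26 in glh1 (adjusted p = 0.00581) and -1.50 ± 0.26 in wt (adjusted p = 8.77e-04).

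For spo-11, him-14 and cosa-1 polysomal glh1 library 3 was the lowest library of all 12, at 102, 90.8 and 99.1 estimated counts, and it is the library that stood apart on the first component. Without it their log2 fold changes in glh1 were closer to 0 (-1.31 for spo-11, -1.38 for him-14 and -0.86 for cosa-1) and all 3 calls held. him-14 and cosa-1 had counts that were not whole numbers in all 12 libraries. him-14 overlaps nos-2 by 154 bp and cosa-1 overlaps Y71H2AM.12 by 178 bp, both on the opposite strand, and spo-11 overlaps enpl-1 by 23 bp. The library kit keeps the strand, and whether the counting used it is not stated.

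rad-51 encodes the recombinase that assembles on resected DNA ends, also in mitotic germ cells and at damage outside meiosis. It had 46.4, 45.03 and 57.6 CPM in glh1 polysomal and 38.0, 39.1 and 42.01 CPM in glh1 total RNA. In wt it had 40.9, 51.6 and 47.7 CPM in polysomal and 30.8, 51.1 and 42.3 CPM in total RNA. In glh1 the polysomal libraries all lay above the total ones, in wt the groups overlapped, and the log2 fold change was 0.32 ± 0.20 in glh1 (adjusted p = 0.197; 95% interval -0.06 to 0.70) and 0.17 ± 0.19 in wt (adjusted p = 0.504; interval -0.21 to 0.56). With upper-quartile scaling, which moved the median of all genes to 0.28 in glh1 and 0.32 in wt, rad-51 was called higher in both genotypes (0.48, adjusted p = 0.0245, in glh1 and 0.45, adjusted p = 0.0327, in wt) and the other 9 genes were again called lower. The split of all called genes moved with it, to 4808 higher and 2624 lower in glh1, against 3901 and 3163 with TMM scaling, and to 4833 higher and 2384 lower in wt, against 3321 and 3272.

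The 9 genes were lower within each culture as well. The log2 ratio of polysomal to total CPM was below 0 for 9 genes in 6 of 6 cultures and above 0 for rad-51 in 6 of 6, at 0.29, 0.20 and 0.46 in glh1 cultures 1, 2 and 3 and at 0.41, 0.01 and 0.17 in wt cultures 1, 2 and 3. By fitted values 54.6% of all genes in glh1 and 52.7% in wt were above 0, and rad-51 stood at percentile 57.5 in glh1. The share of all genes with the same sign in 6 of 6 cultures was not computed. In each of the 6 cultures coh-4 came next after rad-51, between -0.94 and -0.50. him-1 had the lowest ratio in 4 cultures, him-14 in glh1 culture 3 (-2.40) and msh-5 in wt culture 1 (-1.59). The ratio of rad-51 to spo-11, per kb, was 5.50 to 14.5 in glh1 polysomal and 5.47 to 6.43 in wt polysomal libraries, against 2.02 to 2.30 in glh1 total and 1.29 to 1.90 in wt total libraries.

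**Figure D3:**
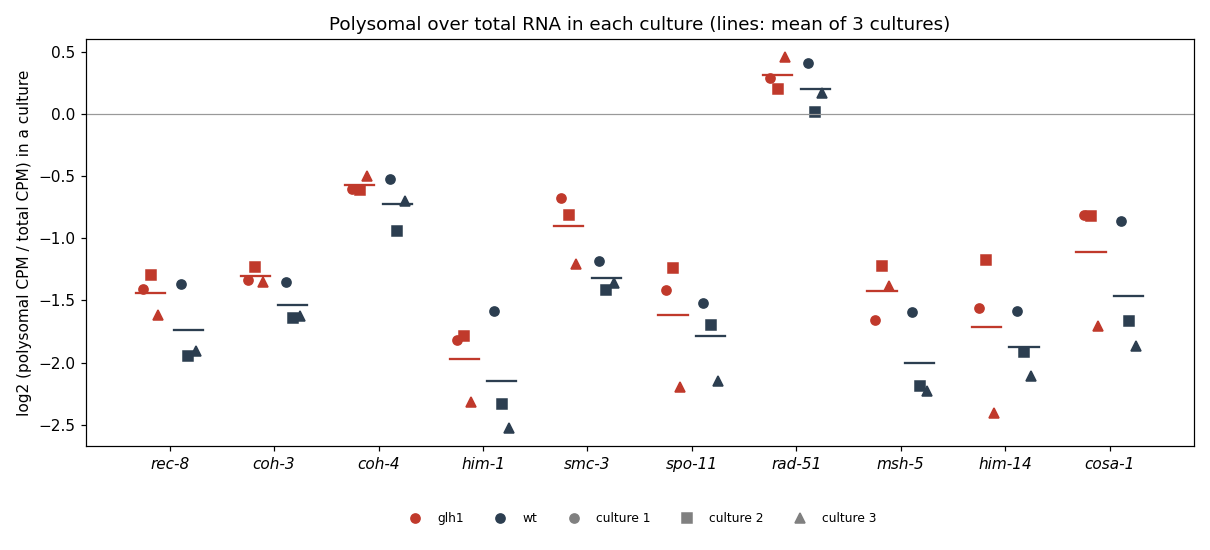
Log2 ratio of polysomal to total CPM for each gene in each of the 6 cultures, glh1 left of wt, with lines at the mean of 3 cultures and at 0. The points of rad-51 lie between 0.01 and 0.46, and those of the other 9 genes lie below 0 in each culture.

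Transcript length moved with this comparison. Across 16510 genes the log2 fold change of polysomal over total RNA had a Spearman correlation with exon length of -0.402 in glh1 and -0.449 in wt (a description over genes that share libraries). The 10 genes have a median exon length of 2293 bp (1270 to 4216 bp), against 1297 bp over the genes tested. rad-51 with 1530 bp, spo-11 with 1431 bp and cosa-1 with 1270 bp are the shortest of the 10. Of these rad-51 was not called while spo-11 and cosa-1 fell, and the part of length in that difference was not tested. When a trend on exon length was removed from each library, 7 of the 10 genes were called in glh1 and 8 in wt, all lower. Of all 16526 genes, 3018 were then called lower and 3395 higher in glh1, and 2772 lower and 2841 higher in wt. coh-4 lost its call in glh1 (-0.27, adjusted p = 0.295) and in wt (-0.41, adjusted p = 0.114), and smc-3 lost its call in glh1 (-0.37, adjusted p = 0.142) and had -0.64 in wt (adjusted p = 0.0192). With the culture as a block as well, smc-3 stood at the threshold in glh1 (-0.37, adjusted p = 0.04998), rad-51 was called higher there (0.43, adjusted p = 0.0496) and coh-4 was not called in glh1 (-0.28, adjusted p = 0.218) or wt (-0.40, adjusted p = 0.0921). him-1 had -1.44 in glh1 and -1.49 in wt, and msh-5 had -0.86 in glh1 and -1.32 in wt, with the trend removed and no block. spo-11 had -1.50 in glh1 and -1.73 in wt, so that with the trend removed spo-11 and not him-1 had the largest fall of the 10.

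The 16 germ line markers, which include the axis genes him-3, htp-1, htp-3, syp-1 and syp-2, were summed beside these values. They came to 1409 to 1542 CPM in glh1 polysomal and 1173 to 1486 CPM in wt polysomal libraries, against 1652 to 1728 CPM in glh1 total and 1617 to 2372 CPM in wt total libraries. Genes within this sum moved both ways: in glh1 polysomal and glh1 total RNA pgl-3 had 233 and 126 CPM, and glp-1 had 22.9 and 110 CPM. The 5 cohesin genes came to 107 to 116 CPM in glh1 polysomal and 100.4 to 109 CPM in wt polysomal libraries, against 266 to 310 CPM in glh1 total and 244 to 363 CPM in wt total libraries. The 17 oocyte markers summed to 8003 to 13274 CPM in glh1 polysomal and 6595 to 11904 CPM in wt polysomal libraries, against 6230 to 6442 CPM in glh1 total and 5685 to 10584 CPM in wt total libraries. Single genes differed: in glh1 polysomal and glh1 total RNA perm-4 had 2757 and 725 CPM, and spn-4 had 68.0 and 286 CPM. The median of the 17 genes' log2 CPM, each centred on its mean over the 12 libraries, went the other way in glh1. It was -0.34 to -0.26 in glh1 polysomal and 0.01 to 0.10 in glh1 total libraries. In wt it was -0.73 to 0.23 in polysomal and -0.14 to 0.88 in total libraries, which overlapped. The same median of the 16 germ line markers was -0.21 to -0.12 in glh1 polysomal and 0.13 to 0.28 in glh1 total libraries. For wt these were -0.44 to -0.13 in polysomal and -0.11 to 0.57 in total libraries.

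Of 68 other cohesin and recombination genes, all tested, 49 fell and 3 rose in polysomal against total RNA in glh1, and 54 fell and 2 rose in wt. Of all genes tested, 19.1% fell and 23.6% rose in glh1, and 19.8% fell and 20.1% rose in wt. The median log2 fold change of the 68 was -1.15 in glh1 and -1.23 in wt, against 0.13 and 0.06 over all genes. By smallest adjusted p the genes that fell in glh1 were led by the nuclease gene mus-81 (-2.04 ± 0.17, adjusted p = 5.18e-05), the DNA polymerase theta gene polq-1 (-2.43 ± 0.22), him-18, which encodes the nuclease scaffold SLX-4 (-2.80 ± 0.27), the helicase gene rtel-1 (-2.97 ± 0.29), evl-14, which encodes the cohesin regulator PDS-5 (-2.51 ± 0.27), and the cohesin subunit gene scc-3 (-1.53 ± 0.17). In wt they were led by polq-1 (-2.92 ± 0.22, adjusted p = 1.89e-05), mus-81 (-1.98 ± 0.17), rtel-1 (-3.41 ± 0.30), the checkpoint gene clk-2 (-1.82 ± 0.17), him-18 (-2.74 ± 0.26) and rmh-2, whose product belongs to the RMI1 family of helicase partners (-3.25 ± 0.32).

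The 4 genes of this list that rose in either genotype were rpa-2, rad-54.B and rip-1, of the strand exchange genes, and chk-1, of the checkpoint and repair genes. chk-1, a checkpoint kinase gene, rose in both genotypes, with 127 ± 55.6 CPM in glh1 polysomal and 54.3 ± 3.7 CPM in glh1 total RNA, and 124 ± 22.8 CPM in wt polysomal and 70.1 ± 14.1 CPM in wt total RNA (SD, n = 3 each). Its log2 fold change was 1.22 ± 0.27 in glh1 (adjusted p = 0.00395) and 0.82 ± 0.27 in wt (adjusted p = 0.0293). rpa-2, a subunit gene of the protein that binds single-stranded DNA before RAD-51 does, rose in glh1 (0.80 ± 0.28, adjusted p = 0.0361) and had 0.40 ± 0.28 in wt (adjusted p = 0.277). rad-54.B, one of the worm's RAD-54 genes, rose in glh1 (0.53 ± 0.19, adjusted p = 0.0423) and had 0.44 ± 0.19 in wt (adjusted p = 0.0899). rip-1, whose product works with the RAD-51 paralogue RFS-1, had 0.63 ± 0.28 in glh1 (adjusted p = 0.0874) and rose in wt (0.97 ± 0.28, adjusted p = 0.0164), at 1.85 CPM in wt polysomal and 0.949 CPM in wt total RNA. Of the 12 other strand exchange genes, 8 fell in glh1 and 8 in wt, where 19.1% of all genes fell in glh1 and 19.8% in wt. The count of the 68 that rose was not stable: over all alternatives it ran from 1 to 5 in glh1 and from 0 to 3 in wt, against 42 to 55 that fell in glh1 and 45 to 58 in wt. In glh1 it was 1 without polysomal glh1 library 3, without any of the total glh1 libraries, without total wt library 3 and without polysomal wt library 1 or 2. In wt it was 0 without total wt library 1 or 3, and 1 without both libraries of wt culture 1 or without polysomal wt library 2 or 3.

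Of 20 genes of the chromosome axis and synaptonemal complex, 14 fell and 2 rose in glh1, and 12 fell and 1 rose in wt, with medians of -0.84 in glh1 and -0.95 in wt. Over all genes 19.1% fell and 23.6% rose in glh1, and 19.8% fell and 20.1% rose in wt. htp-2 rose in both (0.77 ± 0.19, adjusted p = 0.00634, in glh1 and 0.57 ± 0.19, adjusted p = 0.0287, in wt), and htp-1 rose in glh1 (0.67 ± 0.22, adjusted p = 0.0291) and had 0.30 ± 0.22 in wt (adjusted p = 0.310). These HORMA-domain genes are close paralogues, so the division of reads between them is uncertain.

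**Figure D4:**
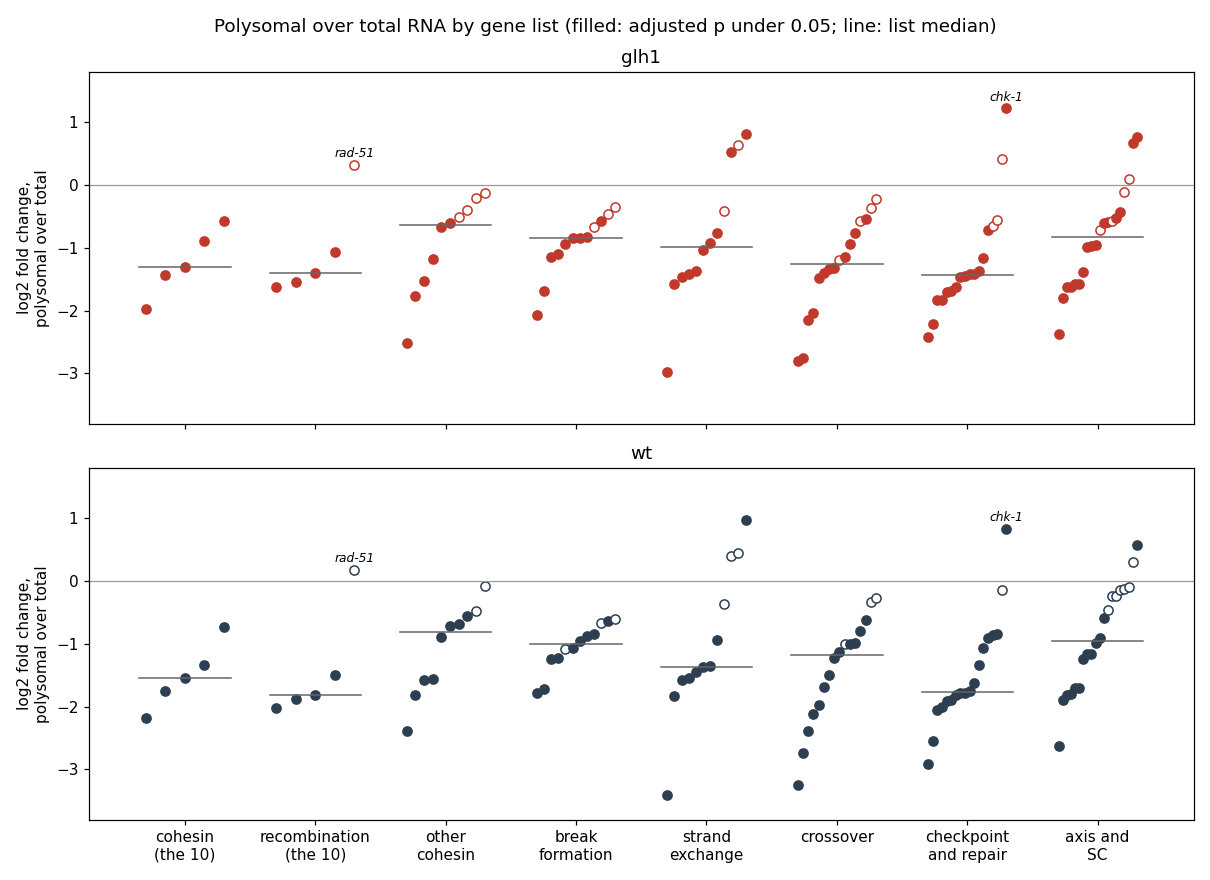
Fitted log2 fold change of polysomal over total RNA for each gene of 8 lists, glh1 above and wt below; filled points passed an adjusted p of 0.05 and lines are list medians (SC, synaptonemal complex). Most points of every list lie below 0, and chk-1 lies at 1.22 in glh1 and 0.82 in wt.

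The genotypes were compared next, first in total RNA. None of the 10 genes passed the test between glh1 and wt, where 0.944% of all genes did and 0.430% did as lower in glh1. In whole worms, fewer cells of a type and less RNA per cell cannot be told apart. The count over all genes, 85 higher and 71 lower, was unstable: it was 905 higher and 658 lower without both libraries of wt culture 1, 598 and 853 without polysomal glh1 library 3, 166 and 270 without wt total library 1, 711 and 626 with only the groups compared, 407 and 460 with DESeq2, and 14 to 20 higher and 15 to 18 lower without any 1 of the glh1 total libraries or of wt total libraries 2 and 3. None of the 10 genes was called under any of these. At an unadjusted p under 0.05 there was 1 of the 10, spo-11, against 2945 of the 16526 genes tested. The log2 fold changes ran from -0.55 for spo-11 to 0.04 for coh-3, with a median of -0.32 against -0.07 over all genes. Of the 10, 9 were below 0 and 1 above, where 44.4% of all genes were above 0. The break-making gene spo-11 averaged 17.3 ± 0.7 CPM in glh1 and 25.3 ± 5.3 CPM in wt (SD, n = 3 each), which is -0.55 ± 0.25 on the log2 scale (SE, adjusted p = 0.271). Its groups did not overlap, nor did those of him-14 (-0.45 ± 0.25, adjusted p = 0.368), while 33.7% of all genes had groups that did not overlap.

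The other crossover genes, the SMC genes and coh-4 had values below 0 with groups that overlapped. cosa-1 averaged 11.04 ± 0.7 CPM in glh1 and 16.02 ± 4.6 CPM in wt (log2 fold change -0.54, 95% interval -1.03 to -0.04, adjusted p = 0.289). msh-5 had -0.37 (-0.75 to 0.01, adjusted p = 0.341), smc-3 -0.37 (-0.74 to 0.01, adjusted p = 0.337), coh-4 -0.27 (adjusted p = 0.451) and him-1 -0.20 (adjusted p = 0.632). The kleisin genes rec-8 (-0.07, interval -0.38 to 0.25) and coh-3 (0.04, interval -0.31 to 0.38) and rad-51 (-0.06, interval -0.44 to 0.32) lay near 0. The spread came mostly from wt, where library 1 was the lowest of 3 for all 10 genes. Upper-quartile scaling moved the median of all genes from -0.07 to 0.08, and 3 of the 10 genes were then above 0. With it 113 genes of all tested were called higher and 51 lower in glh1. The 16 germ line markers summed to 1652 to 1728 CPM in glh1 and 1617 to 2372 CPM in wt total libraries. Marker sums of some other cells did not overlap between the genotypes in total RNA. The 16 sperm markers summed to 340 to 361 CPM in glh1 and 234 to 262 CPM in wt. Single sperm markers went both ways: smz-1 averaged 65.5 CPM in glh1 and 27.9 CPM in wt, and spe-39 29.2 and 43.6 CPM. The 12 neuron markers came to 787 to 834 CPM in glh1 and 579 to 679 CPM in wt. The 12 epidermis markers came to 629 to 692 CPM in glh1 and 952 to 1250.1 CPM in wt, and the 12 muscle markers to 3571 to 3758 CPM in glh1 and 3925 to 5315 CPM in wt. By the median centred log2 CPM of each list, sperm and neuron markers also stayed apart. Epidermis markers overlapped by it (-0.65 to -0.34 in glh1, -1.03 to 0.40 in wt), and so did muscle markers (-0.31 to -0.20 in glh1, -0.22 to 0.15 in wt). Sums of the 11 intestine markers overlapped too (21367.7 to 23187.5 CPM in glh1, 17420.5 to 32006.9 CPM in wt), as did those of the oocyte markers. The part of these cells in the differences of the 10 genes was not tested.

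In polysomal RNA none of the 10 genes passed the test between glh1 and wt either, where 1.06% of all genes did, and none had an unadjusted p under 0.05, against 2590 of all genes tested. The count over all genes, 90 higher and 85 lower, was 682 and 774 without wt culture 1, 154 and 248 without polysomal glh1 library 3, 16 to 113 higher and 30 to 207 lower without any other single library, 458 and 307 with DESeq2, and 0 and 3 with only the groups compared, and none of the 10 genes was called under these either. The log2 fold changes ran from -0.29 for spo-11 to 0.28 for coh-3, with a median of 0.03 against -0.01 over all genes. rec-8 averaged 30.8 ± 2.5 CPM in glh1 and 25.9 ± 1.2 CPM in wt (log2 fold change 0.25 ± 0.16, adjusted p = 0.486), and it was the only gene of the 10 whose groups did not overlap, as in 17.6% of all genes. coh-3 averaged 17.3 ± 1.2 CPM in glh1 and 14.3 ± 1.6 CPM in wt (0.28 ± 0.18, adjusted p = 0.475). The crossover gene msh-5 averaged 9.40 ± 1.7 CPM in glh1 and 7.95 ± 0.48 CPM in wt (0.24, interval -0.15 to 0.63). him-14 had -0.19 (adjusted p = 0.760), and him-1, smc-3, rad-51, coh-4 and cosa-1 lay between -0.10 and 0.09 on the log2 scale.

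**Figure D5:**
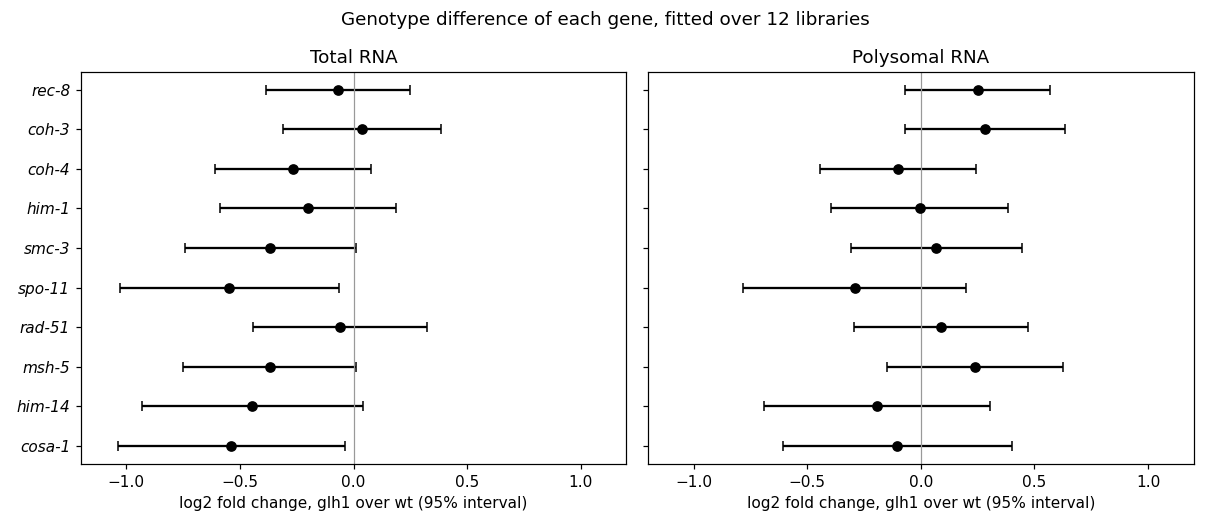
Fitted log2 fold change of glh1 over wt for each of the 10 genes in total RNA (left) and polysomal RNA (right), with 95% intervals. In total RNA the points lie between -0.55 and 0.04 and in polysomal RNA between -0.29 and 0.28, and no gene passed the adjusted test.

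The difference between the genotypes in the polysomal to total change was tested as an interaction. None of the 10 genes passed, and 0% of all genes did, with 491 genes at an unadjusted p under 0.05. All 10 values were above 0, so that the fall was smaller, or the rise larger, in glh1 than in wt by the fitted values, from 0.15 for rad-51 to 0.61 for msh-5. Over all genes 57.5% were above 0, and the median was 0.25 for the 10 genes and 0.07 for all genes. msh-5 (0.61 ± 0.28, unadjusted p = 0.0471, adjusted p = 1.00) was the only one of the 10 with an unadjusted p under 0.05. DESeq2 called none of the 10. The values were not all above 0 when single libraries were left out, where 8 to 10 of the 10 were.

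Among the 68 other cohesin and recombination genes, 2 were lower in glh1 than in wt total RNA, where 0.430% of all genes were, and none higher. hus-1, a subunit gene of the checkpoint clamp that senses DNA damage, averaged 5.99 ± 0.45 CPM in glh1 and 18.1 ± 4.0 CPM in wt (log2 fold change -1.59 ± 0.32, adjusted p = 0.0367). mlh-1, a mismatch repair gene, averaged 38.5 ± 1.6 CPM in glh1 and 69.1 ± 14.6 CPM in wt (-0.84 ± 0.18, adjusted p = 0.0443). The list's median was -0.32, and 60 of the 68 were below 0 and 8 above, where 44.4% of all genes were above 0. The count of 2 rose to 7 without polysomal glh1 library 3, to 3 without wt total library 1 and to 4 without both libraries of wt culture 1. The calls over all genes, 85 higher and 71 lower, became 598 and 853, 166 and 270, and 905 and 658 in that order. The count of the 68 fell to 1 without polysomal glh1 library 1 and to 0 without any of the total glh1 libraries, wt total libraries 2 and 3, polysomal glh1 library 2 or wt polysomal libraries 2 and 3. In polysomal RNA none of the 68 was called, with 4 at an unadjusted p under 0.05 (2590 of the 16526 genes tested), 2 called by DESeq2 and 3 called without wt culture 1. Over all genes DESeq2 called 458 higher and 307 lower there, and the fit without wt culture 1 called 682 and 774. None of the 20 axis and synaptonemal complex genes was called between the genotypes in either fraction, with 3 at an unadjusted p under 0.05 in total RNA, where 2945 of all genes tested were, and 1 in polysomal RNA.

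Among themselves, spo-11, him-14 and cosa-1 followed each other most closely over the 6 polysomal libraries, with Pearson correlations of log2 CPM of 0.982 for spo-11 and him-14, 0.944 for him-14 and cosa-1 and 0.921 for spo-11 and cosa-1, which include the low library 3 of glh1. In the 6 total libraries rad-51 followed rec-8 (0.979) and coh-3 (0.963), although over all 12 libraries its correlations with the other 9 genes were negative, between -0.55 and -0.28. These values describe libraries that share cultures and scaling.

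Outside the lists, the genes whose profile over the 12 libraries was most like the median of the 10 were dnj-5 (Pearson r = 0.995), rabn-5 (0.994), daf-15 (0.994), polk-1 (0.993) and gon-4 (0.993), of 4986 genes compared. Those most like rec-8 were chmp-7 (0.993), rcq-5 (0.992), fzo-1 (0.992), polk-1 (0.992) and vep-1 (0.991). The genes most like rad-51, a comparison added after its values were seen, were dpy-4 (0.936), col-63 (0.935), bud-31 (0.933), col-138 (0.932) and rpb-5 (0.927).

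On the WBcel235 genome rec-8 (WBGene00004333) lies on chromosome IV at 13349122 to 13353193, spo-11 (WBGene00004985) at 11123133 to 11124862, rad-51 (WBGene00004297) at 10281634 to 10284244 and msh-5 (WBGene00003421) at 13155233 to 13164054 of that chromosome. coh-3 (WBGene00000592) lies on chromosome V at 14457422 to 14460141 and coh-4 (WBGene00021560) at 4169912 to 4175640 of chromosome V. him-1 (WBGene00001860) lies on chromosome I at 4951571 to 4957667 and him-14 (WBGene00001872) on chromosome II at 7065020 to 7069966. smc-3 (WBGene00004873) lies on chromosome III at 11290904 to 11306247 and cosa-1 (WBGene00022172) at 2726116 to 2731670 of chromosome III. No sequences were used here.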

How the data were processed

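The labels give genotype and fraction. Per the labels, half-lysates went to total RNA and to a sucrose gradient, so both libraries of a culture number share a lysate, and mRNA was sequenced for 75 cycles with a stranded kit. The authors deposited a table of estimated counts per gene and a table of rlog values, which are log2 values. The submitters' processing notes name Trimmomatic 0.36, STAR 2.6.1b, RSEM 1.3.0, R 3.6.1, DESeq2 1.24.0 and WBcel235. It is not known which tool made the counts, since the table carries the name of kallisto. Ensembl release 115 gave gene positions and exon lengths.

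Estimated counts were rounded and fitted with edgeR 4.0.16 in R 4.3.3 (TMM, filterByExpr, robust quasi-likelihood, 4 groups of 3 libraries, 12 libraries in all, 5 contrasts), with Benjamini-Hochberg adjustment over all 16526 genes within a contrast and calls under 0.05. Intervals of 95% are 1.96 SE, a normal approximation that is narrower than the quasi-likelihood test implies. Log2 CPM used a prior count of 2. Replicates are separate cultures. In total RNA the median SE of log2 fold changes was 0.306. Between libraries of a group, counts differed far beyond counting noise.

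The 10 genes, the lists of other genes and the tests were chosen with earlier results of these data known. Named outside the 10 are list genes that were called (up to 6 per contrast and direction by adjusted p) and the 5 genes most like a profile, with a mean of at least 10 CPM and in no list. Fractions of a culture pair by their shared lysate. The deviations of the paired libraries had correlations of 0.0989, -0.163 and -0.206 in glh1 and of 0.756, 0.440 and 0.303 in wt. The planned fit had no block. The alternatives took upper-quartile scaling or DESeq2 size factors, no filter or a strict one (5 CPM in 3 libraries), a fit of only the compared groups, a replicate block, DESeq2 1.42.0, limma 3.58.1 on rlog values, ribosomal RNA genes removed, an exon length trend removed, and libraries left out; summing coh-3 and coh-4 was chosen after seeing the data. The test was checked on simulated data. Figures were drawn with matplotlib 3.10.9.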

Additional observations from a re-analysis of the deposited data

How the results depend on the processing

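Between the genotypes no alternative called any of the 10 genes. Between the fractions the count of the 10 called was 7 with the length trend removed and 9 with the replicate block in glh1, 8 and 9 for these in wt, 10 with upper-quartile scaling in both genotypes, where rad-51 was added, and 8 to 9 in glh1 and 9 in wt leaving out each library. Over all genes 3018 were called lower with the length trend removed and 3543 with the block in glh1, and 2772 and 3461 in wt. Values with the replicate block alone kept the direction and the side of the threshold of all 10 genes in all 5 contrasts. For the 68 other genes in total RNA (2 called), the count was 1 with upper-quartile scaling, 1 with no filter, 1 with the length trend removed, 1 with the replicate block, 4 with only the groups compared, 4 without wt culture 1, 5 with DESeq2 and 0 to 7 leaving out each library. In polysomal RNA (0 called) it was 3 without wt culture 1 and 2 with DESeq2. Calls over all genes in total RNA were 407 higher and 460 lower with DESeq2 and 711 and 626 with only the groups compared. The values that changed sign were all uncalled. In total RNA rec-8 stood at 0.10 with upper-quartile scaling, 0.012 with no filter, 0.0043 with only the groups compared, 0.017 without ribosomal RNA genes and 0.045 with the length trend removed. There rad-51 stood at 0.12 with upper-quartile scaling, 0.024 with no filter, 0.016 with only the groups compared and 0.027 without ribosomal RNA genes. With coh-3 and coh-4 counts added, a setting chosen after seeing the data, the pair stood at -0.071 in total and 0.10 in polysomal RNA. In polysomal RNA him-1 stood at 0.040 with upper-quartile scaling, 0.024 with the strict filter, 0.036 with the length trend removed and 0.0087 with limma on rlog values. Without wt culture 1, smc-3 stood at -0.11 and rad-51 at -0.063 in polysomal RNA. Leaving out each library gave, in total RNA, -0.21 to 0.051 for rec-8, -0.10 to 0.18 for coh-3, -0.39 to 0.017 for him-1 and -0.24 to 0.12 for rad-51. In polysomal RNA it gave -0.053 to 0.034 for him-1, -0.11 to 0.14 for smc-3, -0.065 to 0.15 for rad-51, -0.48 to 0.057 for him-14 and -0.24 to 0.10 for cosa-1. For the change between fractions in wt, rad-51 ran from -0.0018 to 0.35. For the interaction it gave -0.015 to 0.29 for coh-4, -0.063 to 0.39 for him-1, -0.030 to 0.50 for spo-11, -0.084 to 0.33 for rad-51 and -0.032 to 0.50 for him-14. The cause of these changes was not tested. With only the groups compared the interaction is the same fit, so it was not repeated. Of the 10 genes spo-11, him-14 and cosa-1 had the fewest counts in their lowest library, 90.8 to 102 estimated counts, and the part of depth in their values was not tested.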
